A study of Mus musculus with 2 samples.

Results

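The adhesion molecules by which endothelium captures and passes leukocytes were followed as 10 genes, *Selp*, *Sele*, *Ackr1*, *Icam1*, *Icam2*, *Vcam1*, *Alcam* and *Cd34* on the vessel side and *Selplg* and *Itga4* on the leukocyte side, of 32285 genes in the tables. They were listed by name, with earlier results of these data known, and no threshold on their values was used to choose them. All 10 had UMIs, that is, single captured mRNA molecules, in the tumor endothelial cells (TECs), and 9 of them passed the minimum of 100 UMIs set for comparisons over all TECs, with *Selplg* below it. The data were 1 control and 1 Dnmt1iECKO library of droplet single-cell RNA-seq, each from the sorted live CD31+ CD45- cells of the tumors of 3 pooled female mice aged 8 to 10 weeks. Dnmt1iECKO mice carried Cdh5CreERT2, Dnmt1fl/fl and ZsGreenlsl/lsl, so that tamoxifen switches on a Cre under the *Cdh5* promoter, which is active in endothelium. The control is labelled C57BL/6, whereas the methods of the study give control mice that carry the same Cre and ZsGreen alleles. Tumors of both libraries came from YUMMER1.7, a mouse melanoma line with many somatic mutations. The labels place them under the skin of the shoulder, and the methods give lung tumors after injection into the tail vein.

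Leukocytes leave the blood in steps. They are first slowed by selectins on the vessel wall, which bind sugars carried on leukocyte proteins such as PSGL-1, the product of *Selplg*. Integrins then hold them on immunoglobulin-like ligands, among them ICAM-1 and ICAM-2 for the beta2 integrins and VCAM-1 for the integrin whose alpha chain is encoded by *Itga4*. ACKR1 binds chemokines without signalling and is known on venules, the vessels in which most of this traffic takes place.

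E-selectin and P-selectin are encoded on the same chromosome. *Sele* lies on chromosome 1 from 164048234 to 164057677 and *Selp* from 164115264 to 164150026, both on the forward strand of GRCm38, the build of the files, with 57.6 kb between them. DNA methylation acts at CG pairs, and the promoters of the inducible members are shown since the deleted gene, *Dnmt1*, encodes the maintenance DNA methyltransferase. The windows hold the 250 bases before the RefSeq start (GRCm38.p6) at chr1:164047984-164048233 for *Sele*, chr1:164115014-164115263 for *Selp* and chr9:21015690-21015939 for *Icam1*, all on the forward strand. For *Icam1* that RefSeq start lies before the one of the annotation used for gene positions below. Capitals mark matches to the STAT-type GAS motif TTCNNNGAA or the AP-1 motif TGANTCA.
Sele: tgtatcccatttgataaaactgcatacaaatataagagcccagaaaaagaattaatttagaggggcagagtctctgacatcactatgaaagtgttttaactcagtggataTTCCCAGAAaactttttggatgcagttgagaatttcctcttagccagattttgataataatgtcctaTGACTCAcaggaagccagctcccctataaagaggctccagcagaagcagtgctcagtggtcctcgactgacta
Selp: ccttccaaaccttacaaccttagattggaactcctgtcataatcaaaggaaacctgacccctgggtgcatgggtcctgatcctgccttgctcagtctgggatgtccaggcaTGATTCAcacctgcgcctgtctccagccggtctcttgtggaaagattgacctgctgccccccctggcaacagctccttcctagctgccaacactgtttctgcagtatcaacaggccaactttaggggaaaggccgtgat
Icam1: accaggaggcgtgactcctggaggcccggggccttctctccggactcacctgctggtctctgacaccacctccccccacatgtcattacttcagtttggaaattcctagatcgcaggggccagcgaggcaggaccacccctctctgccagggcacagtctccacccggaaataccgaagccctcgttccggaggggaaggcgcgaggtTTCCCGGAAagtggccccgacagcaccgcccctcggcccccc

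The window of *Sele* held 1 CG pair and that of *Selp* 3, against a median of 6 over 32851 promoter windows of the same length (quartiles 2 and 16). Only 7.87% of all windows had fewer pairs than *Sele* and 29.0% had fewer than *Selp*. *Icam1* held 15, more than 72.7% of the windows, and the windows of *Ackr1*, *Alcam*, *Cd34* and *Itga4* held 3, 22, 6 and 6. Of 10 members, 7 were matched to the promoter table, and *Vcam1*, *Icam2* and *Selplg* were not analysed here. Both strands were searched. A GAS match began 140 bases before the start in *Sele* and 42 before it in *Icam1*, and 7.02% of all windows hold one. An AP-1 match began 73 bases before the start in *Sele* and 139 before it in *Selp*, with one in 6.75% of windows. *Sele* also held the letters TATAAA 49 bases before its start, which 12.4% of windows hold. No member window matched the NF-kB consensus, found in 7.25% of windows, or the CRE-like letters TGACGTCA, found in 1.55%. The NF-kB consensus was searched as GGGRNNYYCC, with R for A or G, Y for C or T and N for any base. Sites that depart from these letters were not counted. These matches describe the letters of the windows only.

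The control library had 9301 cells and 123830489 UMIs, and the Dnmt1iECKO library had 9522 cells and 141433493 UMIs. After quality filters 7764 and 7839 cells were left, and 29 cell barcodes occurred in both libraries. TECs were cells without a UMI of *Ptprc* (leukocytes), *Epcam* (epithelium), *Cspg4* or *Myh11* (mural cells) and with a UMI of *Cdh5* or *Pecam1*. They numbered 4837 with 55421910 UMIs in the control and 2064 with 25711990 UMIs in the Dnmt1iECKO library, with medians of 9592 and 9762 UMIs per cell. Although cells had been sorted as CD45-, 17.3% of the control cells and 57.5% of the Dnmt1iECKO cells kept after filtering had a *Ptprc* UMI. Levels below are UMIs per 1000000 UMIs of the same cells (CPM), with exact Poisson 95% intervals in parentheses, and ratios are the log2 of the Dnmt1iECKO level over the control level with exact 95% intervals. Each condition had 1 library and cells are not replicates, so no difference has a test, and all intervals cover counting error only.

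A TEC was put in a class when both genes of a marker pair were detected and no other pair was complete. *Ednrb* and *Car4* gave 1029 control and 313 Dnmt1iECKO aerocyte-like cells, the alveolar capillary type. *Kit* and *Bmp6* gave 1947 and 768 general capillary-like cells, *Slc6a2* and *Prss23* gave 95 and 123 vein-like cells, and *Gja5* and *Bmx* gave 31 and 30 artery-like cells. Cells with several complete pairs (mixed) numbered 781 and 321, and cells with none (other) 954 and 509. Markers outside the pairs were at least 2-fold above the other TECs in both libraries for 4 of 4 aerocyte, 3 of 4 general capillary, 3 of 4 vein and 4 of 5 artery genes. The vein-like share of TECs was 1.96% (1.59 to 2.40) in the control library and 5.96% (4.98 to 7.07) in the Dnmt1iECKO library. Aerocytes and general capillary cells are types described in lung, and cells with their markers were 21.3% and 40.3% of the control TECs, although the labels give tumors under the skin. Cells of the class other were shallower, with medians of 3476 and 4021 UMIs, and carried signs of other cell types: 4 fibroblast genes summed to 1726 and 3107 CPM there and 4 platelet genes to 272 and 378 CPM. Lymphatic endothelial genes summed to 1798 and 1299 CPM in that class, with *Ccl21a*, a chemokine of lymphatic vessels, at 1299 and 858. The same genes summed to 1517 and 1518 CPM in vein-like and 1600 and 1748 CPM in artery-like cells. Nearly all of that was *Lyve1*, at 1511 and 1513 CPM in vein-like and 1595 and 1741 CPM in artery-like cells.

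*Dnmt1* itself had 49.0 CPM (47.1 to 50.8) in control and 26.7 (24.7 to 28.8) in Dnmt1iECKO TECs, a log2 ratio of Dnmt1iECKO over control of −0.88 (−1.0 to −0.75). In *Ptprc*-positive cells it had 53.6 and 63.7 CPM. In vein-like cells, by contrast, 37 and 58 *Dnmt1* UMIs gave 29.4 CPM (20.7 to 40.5) and 31.9 (24.2 to 41.3), a log2 ratio of 0.12 (−0.50 to 0.76). No lower level was seen there, and this interval lies above that of all TECs. The cell cycle genes *Mki67* and *Top2a* summed to 86.6 CPM in control and 303 CPM in Dnmt1iECKO vein-like cells. Over all TECs they summed to 134 and 207 CPM, and their part in the *Dnmt1* level was not tested. The deleted exons are not given in the sources used here, and UMIs counted near the end of the transcript may lie outside them, so the level need not measure the deletion.

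Among the 4 named classes, *Selp*, *Ackr1*, *Vcam1* and *Icam1* had their highest levels in vein-like cells of both libraries, as had *Sele* in the Dnmt1iECKO library, and *Icam2*, *Cd34* and *Itga4* stood highest in aerocyte-like cells. *Icam1* was high in all 4. Over all TECs, *Selp*, *Ackr1*, *Sele* and *Vcam1* were more than 2-fold higher in the Dnmt1iECKO library and *Itga4* more than 2-fold lower. Within vein-like cells none of the 8 members with enough UMIs differed by 2-fold, *Itga4* having 1 UMI there. *Sele* did so without its richest cell in each library, at a ratio of 1.36 instead of 0.91, and *Alcam* without cells with *Mki67* or *Top2a* UMIs, at −1.84 instead of −0.92.

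**Figure D1:**
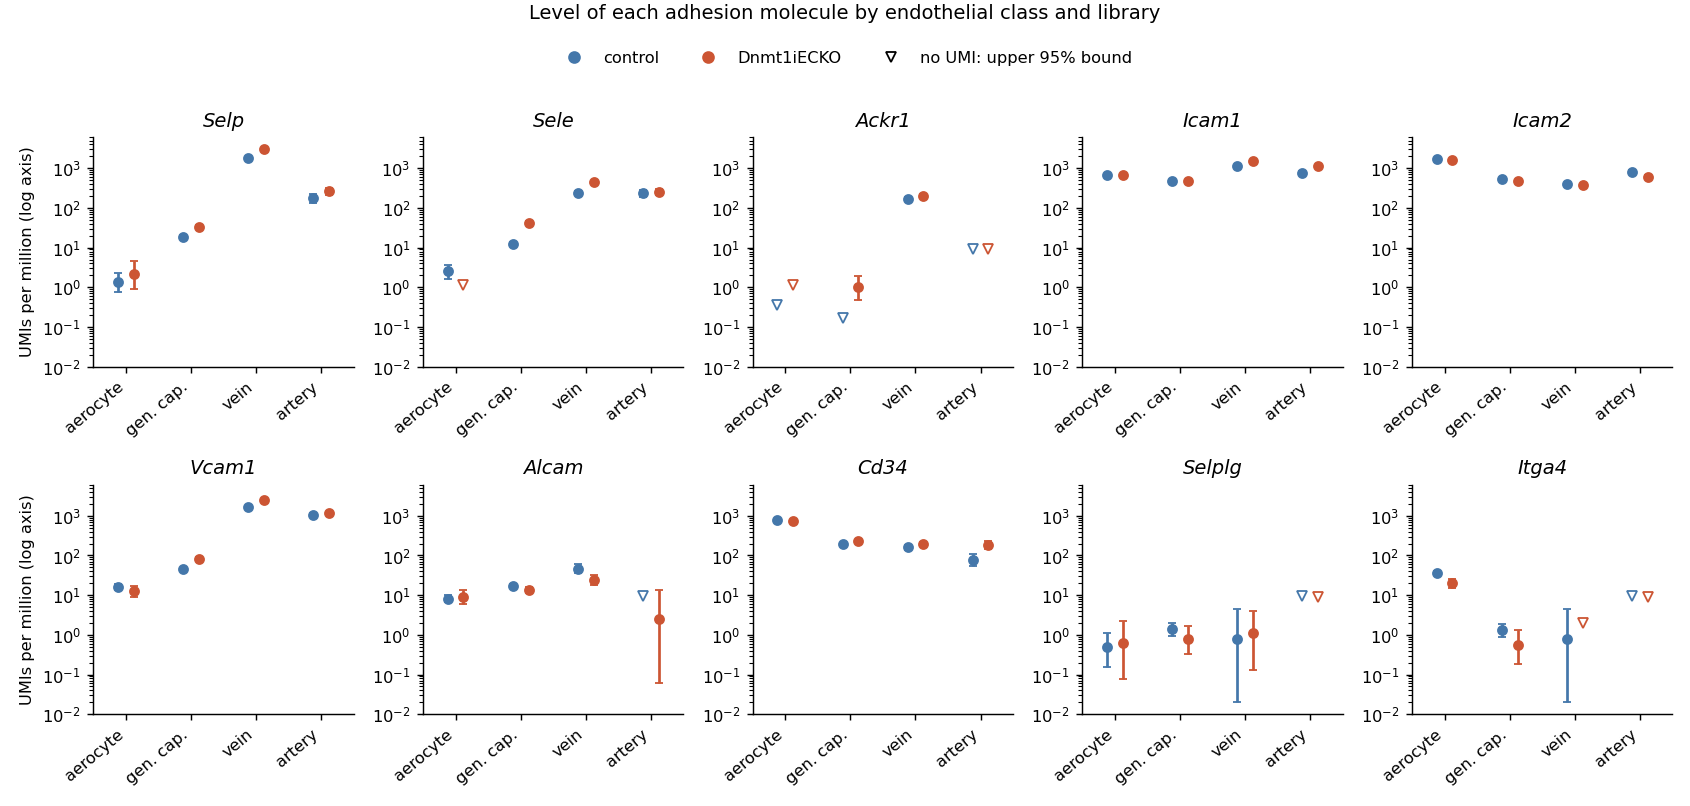
CPM on a log axis for each of the 10 members in 4 endothelial classes (aerocyte-like, general capillary-like, vein-like, artery-like), with 1 point per library and exact Poisson 95% intervals; open triangles give the upper bound where no UMI was found. Selp stands at 1866 and 3033 in vein-like cells and at 1.37 and 2.21 in aerocyte-like cells, while Icam1 keeps within 470 and 1519 in all of them.

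*Selp* encodes P-selectin, which endothelium and platelets store in granules. In the control library it had 1866 CPM (1791 to 1943) in vein-like, 176 (137 to 223) in artery-like, 19.1 (17.3 to 21.0) in general capillary-like and 1.37 (0.750 to 2.30) in aerocyte-like cells. The order was the same in the Dnmt1iECKO library, with 3033 (2953 to 3114), 262 (214 to 316), 34.0 (30.3 to 38.1) and 2.21 (0.889 to 4.56), and no neighbours in it overlapped in their intervals. The Dnmt1iECKO level was the higher one in each class as drawn here, but not in artery-like cells drawn after thinning to 2000 UMIs, where the ratio was −2.04. The log2 ratio was 0.70 (0.63 to 0.77) in vein-like cells, 0.84 (0.62 to 1.05) in general capillary-like cells and 0.57 (0.12 to 1.03) in artery-like cells, and in aerocyte-like cells, on 14 and 7 UMIs, it was 0.69 (−0.86 to 2.09). Over all TECs *Selp* had 103 and 379 CPM, a ratio of 1.88 (1.84 to 1.93). Platelet genes *Pf4*, *Ppbp*, *Itga2b* and *Gp9* were all detected in vein-like cells at a summed 15.9 and 9.91 CPM, against 116 and 166 in all TECs. TECs with a UMI of *Pf4* or *Ppbp* held 8.14% and 1.32% of the *Selp* UMIs, and without these cells the ratio over all TECs was 2.02.

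*Sele* encodes E-selectin, which is made on activation. It had 234 CPM (208 to 263) in vein-like and 237 (192 to 291) in artery-like control cells, which did not differ beyond counting error. In the Dnmt1iECKO library vein-like cells stood above artery-like cells, at 441 (411 to 472) and 254 (208 to 308). The vein-like ratio was 0.91 (0.72 to 1.11) and the artery-like ratio 0.10 (−0.32 to 0.52), which was −1.27 with the class drawn after thinning. In general capillary-like cells *Sele* had 12.2 and 42.7 CPM, a ratio of 1.81 (1.58 to 2.04). Aerocyte-like cells had 26 UMIs in the control library and none in the Dnmt1iECKO library, which makes the control level at least 2.69-fold higher when the other is put at 3 counts. This rests on 1 cell, which held 24 of the 26 UMIs, and 3 of 1029 control cells had any. The class other also had the lower level in the Dnmt1iECKO library, 54.6 against 43.1 CPM, a ratio of −0.34 (−0.59 to −0.10). Outside endothelium, *Sele* UMIs were found in mural-like cells at 32.2 and 23.1 CPM and in fibroblast-like cells at 16.1 and 24.2, and none in epithelial-like cells.

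*Ackr1* was nearly restricted to the vein-like class among the 4 named ones. It had 169 CPM (147 to 193) in control and 205 (185 to 227) in Dnmt1iECKO vein-like cells, a ratio of 0.28 (0.032 to 0.53), no UMI in aerocyte-like or artery-like cells of either library, and in general capillary-like cells no UMI in the control and 9 in the Dnmt1iECKO library, 8 of them in 1 cell. The class other had 4.17 and 28.0 CPM, a ratio of 2.75 (2.17 to 3.36), and all TECs 7.83 and 25.5, a ratio of 1.70 (1.53 to 1.88). The vein-like ratio rested on few cells: 1 control cell held 83 of the 213 vein-like UMIs, and without the cell richest in *Ackr1* in each library the ratio was 0.60. Without vein-like cells that had a UMI of the cell cycle genes *Mki67* or *Top2a* it was −0.54. These 2 genes summed to 86.6 CPM in control and 303 CPM in Dnmt1iECKO vein-like cells, and their part in the levels of the members was not tested.

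*Icam1*, the ligand of the beta2 integrins that is induced in inflammation, was found in every class. Vein-like cells had 1128 CPM (1070 to 1188) in the control and 1519 (1463 to 1577) in the Dnmt1iECKO library, a ratio of 0.43 (0.34 to 0.52). Artery-like cells had 768 (684 to 860) and 1135 (1034 to 1243), a ratio of 0.56 (0.35 to 0.78). In the large capillary classes the libraries differed by less than counting error, with 682 and 672 CPM in aerocyte-like cells, a ratio of −0.022 (−0.093 to 0.048), and 474 and 470 in general capillary-like cells, a ratio of −0.013 (−0.066 to 0.039). In the control the artery-like and aerocyte-like intervals overlapped, and all other neighbours in the order did not. *Icam1* was not particular to endothelium, with 385 and 393 CPM in epithelial-like cells and 199 and 141 in *Ptprc*-positive cells.

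*Icam2*, which endothelium makes without induction, had another order. Aerocyte-like cells had 1690 CPM (1665 to 1715) in control and 1653 (1609 to 1699) in Dnmt1iECKO, followed by artery-like cells with 811 and 602, general capillary-like cells with 538 and 487, and vein-like cells with 400 (365 to 436) and 376 (348 to 405). The ratios were −0.031 (−0.076 to 0.013), −0.43 (−0.68 to −0.19), −0.15 (−0.20 to −0.10) and −0.088 (−0.26 to 0.081). No class as drawn here had a higher level in the Dnmt1iECKO library, but the aerocyte-like and vein-like intervals held 0. The vein-like ratio was 0.36 when at least 3 UMIs of the pair were asked for. Over all TECs the ratio was −0.32 (−0.35 to −0.30), with 794 and 634 CPM.

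*Vcam1* encodes the endothelial ligand of the integrin that contains the *Itga4* product. Vein-like cells had 1661 CPM (1590 to 1734) in control and 2453 (2381 to 2526) in Dnmt1iECKO, a ratio of 0.56 (0.49 to 0.64), and artery-like cells 1049 (950 to 1155) and 1166 (1064 to 1276), a ratio of 0.15 (−0.04 to 0.35). General capillary-like cells had 44.5 and 83.9 CPM, a ratio of 0.92 (0.78 to 1.06), and aerocyte-like cells 16 and 12.6, a ratio of −0.34 (−0.87 to 0.17). *Vcam1* was also carried by other cells of the tumors, with a UMI in 59.3% and 53.3% of fibroblast-like cells at equal depth and 181 and 136 CPM in monocyte or macrophage-like cells. TECs with a UMI of *Dcn* or *Col1a1*, genes of fibroblasts, were 5.97% of the control and 9.59% of the Dnmt1iECKO TECs and held 31.7% and 22.6% of the *Vcam1* UMIs. All 4 fibroblast genes were detected in vein-like cells, at a summed 840 and 313 CPM. Without cells carrying *Dcn* or *Col1a1* the *Vcam1* ratio was 1.48 over all TECs and 0.53 in vein-like cells. Over all TECs the ratio was 1.18 (1.14 to 1.22), with 171 and 388 CPM, and it was 0.87, below 2-fold, when cells with a UMI of *Epcam*, *Cspg4* or *Myh11* were kept.

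The levels in general capillary-like cells depended on how the class was drawn. When the marker pair had to be found among 2000 UMIs drawn from each cell, the ratios there were −0.076 for *Selp*, 0.048 for *Sele* and −0.34 for *Vcam1*, and when at least 3 UMIs of the pair were asked for they were 1.99, 1.63 and 1.71. The vein-like ratios of these 3 genes stayed between 0.39 and 0.91 under both rules.

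*Alcam* encodes an adhesion molecule that binds CD6 on T cells. It was low in the named classes, at 46.9 CPM (35.7 to 60.5) and 24.8 (18.1 to 33.1) in vein-like cells, a ratio of −0.92 (−1.51 to −0.34), and 16.8 and 13.4 in general capillary-like cells. The class other had 107 and 147 CPM, and TECs with a UMI of *Dcn* or *Col1a1* held 56.9% and 60.8% of its UMIs. Epithelial-like cells had a UMI in 93.9% and 90.9% at equal depth, and monocyte or macrophage-like cells 460 and 606 CPM. Over all TECs the ratio was 0.42 (0.31 to 0.53), and without the class other it was −0.25.

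*Cd34* encodes a sialomucin of the endothelial surface. Aerocyte-like cells had 786 CPM (769 to 804) in control and 720 (691 to 750) in Dnmt1iECKO, a ratio of −0.13 (−0.19 to −0.059). General capillary-like cells had 200 (194 to 206) and 229 (219 to 240), a ratio of 0.20 (0.12 to 0.27), and vein-like cells 163 (141 to 187) and 200 (180 to 222), a ratio of 0.30 (0.048 to 0.55). In artery-like cells, 31 and 76 UMIs gave 79.1 CPM (53.7 to 112) and 186 (146 to 233), a ratio of 1.23 (0.61 to 1.88). That ratio was 0.64, below 2-fold, when at least 3 UMIs of the pair were asked for, and the vein-like ratio was −0.12 (−0.44 to 0.19) in the 87 and 100 cells without an *Ackr1* UMI. Control classes followed in the order named without overlap of neighbours, whereas the last 3 overlapped with their neighbours in the Dnmt1iECKO library.

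The leukocyte genes were nearly absent from endothelium, with an exception for *Itga4*. *Selplg* had 63 and 35 UMIs over all TECs, 1.14 CPM (0.873 to 1.45) and 1.36 (0.948 to 1.89). *Itga4*, the alpha4 integrin chain, had 11.2 CPM (10.4 to 12.2) and 4.43 (3.66 to 5.33), a ratio of −1.34 (−1.64 to −1.05), and 58.4% and 56.1% of these UMIs lay in aerocyte-like cells. There it had 35.7 CPM (32.1 to 39.5) in control and 20.2 (15.6 to 25.8) in Dnmt1iECKO, a ratio of −0.82 (−1.22 to −0.43), and a UMI in 5.23% and 4.75% of cells at equal depth. Without thinning the shares were 21.0% (18.5 to 23.6) and 12.5% (9.01 to 16.6), at median depths of 9592 and 9738 UMIs. T cell, B cell and NK cell markers summed to at most 2.21 CPM each in aerocyte-like cells, and monocyte or macrophage markers to 35.7 and 67.9. The mean over cells of CPM gave a ratio over all TECs of −0.64.

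Members were chosen with earlier results of these data known, so counts of them are no independent evidence. Read against all genes, the members that passed the 2-fold mark were as follows. Over all TECs, 4 of 9 members with the minimum count were at least 2-fold higher in the Dnmt1iECKO library, where 2.26% of 13012 genes were, and 1 of 9 was lower, where 0.707% of genes were. In general capillary-like cells, with a minimum of 20 UMIs, *Sele* was higher and *Itga4* lower out of 9, against 2.22% and 2.92% of genes. Of 8 in aerocyte-like cells none was higher and *Sele*, by the 1 cell named above, was lower, against 1.72% and 3.30% of genes. In vein-like cells 0 of 8 were higher or lower, against 3.62% and 3.05% of genes. In artery-like cells *Cd34* was the only one of 6 that was higher and none was lower, against 4.22% and 4.88% of genes. The median ratio of the members was 0.42 over all TECs and 0.36 in vein-like cells, against −0.0096 and −0.019 for all genes.

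Much of the difference over all TECs moved with the share of classes. If the Dnmt1iECKO levels of each class, mixed and other included, are weighted by the UMIs of the classes in the control library, the ratio was 1.09 for *Selp* instead of 1.88, 0.86 for *Ackr1* instead of 1.70, 0.76 for *Sele* instead of 1.28 and 0.48 for *Vcam1* instead of 1.18. *Selp* and *Itga4*, at −1.03, were the members left past 2-fold. In no named class as drawn here was *Selp* past 2-fold, whereas its ratio was 1.42 in mixed cells and 1.30 in the class other. *Itga4* had −1.40 in mixed cells and −1.42 in the class other. In aerocyte-like cells it had −0.82, and in general capillary-like cells −1.23 on 29 and 5 UMIs. The weighting does not equalise the make-up of cells inside mixed and other. A larger share of vein-like cells and a higher level per cell cannot be fully told apart by this weighting, since the vein-like class was drawn from expression in the same cells.

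**Figure D2:**
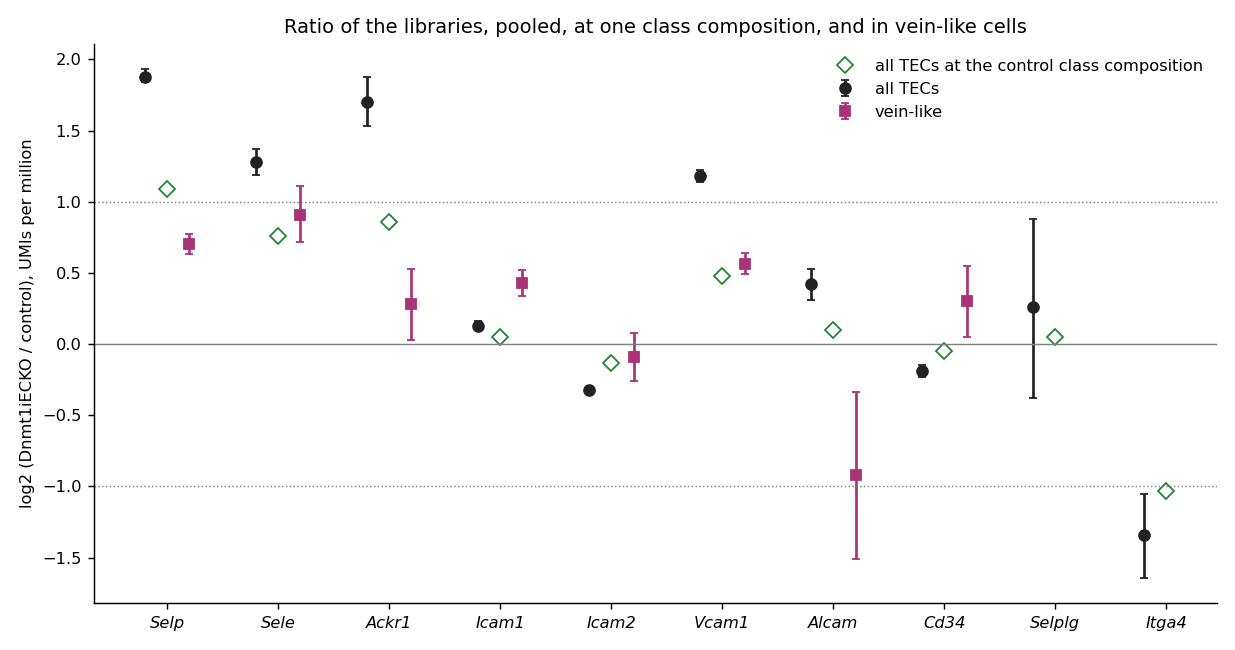
Log2 ratio of Dnmt1iECKO over control CPM for each member over all TECs (circles), over all TECs at the class composition of the control library (diamonds, no interval) and in vein-like cells (squares), with exact 95% intervals and dotted lines at 2-fold. Selp drops from 1.88 to 1.09 at equal composition and to 0.70 in vein-like cells, and Itga4 is the member at −1.34; members with fewer than 20 UMIs in vein-like cells have no square.

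The place of the UMIs comes from the same counts, and the share of a class moves with both its size and its level. Vein-like cells, 1.96% of control TECs, held 41.3% of the *Selp*, 49.1% of the *Ackr1*, 22.0% of the *Vcam1* and 16.6% of the *Sele* UMIs of that library. In the Dnmt1iECKO library, where they were 5.96% of TECs, they held 56.6%, 56.9%, 44.6% and 39.9%. *Icam2* and *Cd34* had 1.14% and 1.06% of their control UMIs there, and 4.19% and 4.62% of their Dnmt1iECKO UMIs. Mixed cells, which have 2 or more complete marker pairs and a median of 16471 and 17842 UMIs, held a further 36.3% and 26.4% of the *Selp* UMIs. In the control they held 43.8% of the *Ackr1*, 39.0% of the *Sele* and 28.7% of the *Vcam1* UMIs. The class other held 22.8% of the control *Sele* and 33.0% of the control *Vcam1* UMIs. For *Sele* and *Vcam1* both shares were above the vein-like one. In the Dnmt1iECKO library no class held more UMIs of *Selp*, *Ackr1*, *Vcam1* or *Sele* than vein-like cells.

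**Figure D3:**
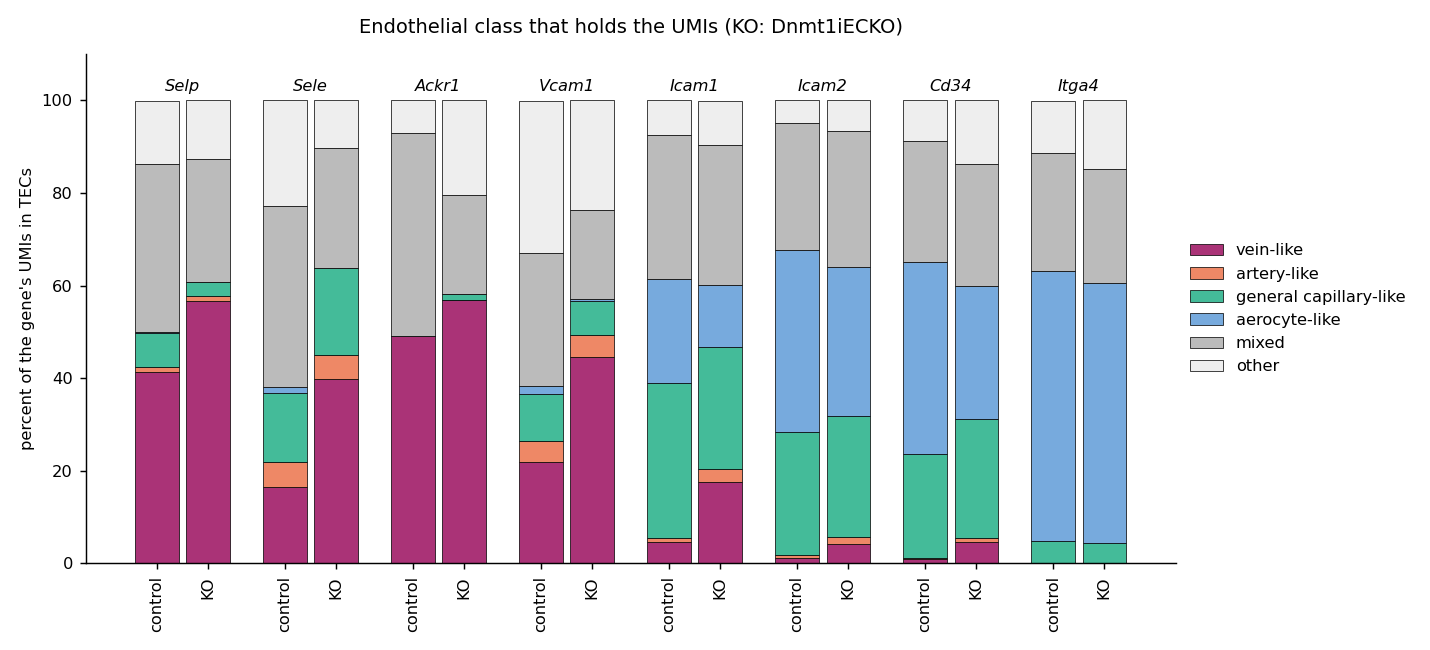
Percent of the UMIs of 8 members in TECs that lie in each endothelial class, as stacked bars for the control and the Dnmt1iECKO (KO) library. Vein-like cells hold 41.3% and 56.6% of the Selp UMIs and 1.14% and 4.19% of the Icam2 UMIs, for which aerocyte-like cells hold 39.2% and 32.1%.

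Within the vein-like class the members were unevenly spread over cells. The 10 control cells with the most *Selp* held 71.2% of its UMIs, and the 13 such cells of the Dnmt1iECKO library 58.1%. The median cell had 79.7 and 60.9 CPM of *Selp*, and the cell at the third quartile 804 and 3819. With each cell thinned to 2000 UMIs, a *Selp* UMI was found in 36.2% (26.5 to 46.7, Clopper-Pearson 95%) of 94 control and 45.4% (36.2 to 54.8) of 119 Dnmt1iECKO vein-like cells. Without thinning these shares were 55.8% and 51.2%. *Sele* was found in 8.51% (3.75 to 16.1) and 15.1% (9.22 to 22.8), *Ackr1* in 5.32% (1.75 to 12.0) and 10.1% (5.32 to 17.0), *Vcam1* in 58.5% and 59.7%, and *Icam1* in 63.8% and 68.9%. Unthinned they were 10.5% and 25.2% for *Sele*, 77.9% and 81.3% for *Vcam1* and 85.3% and 86.2% for *Icam1*. The intervals of the libraries overlapped for each of these 5 genes. In epithelial-like cells, which were drawn without *Cdh5* UMIs and so leave out cells with that sign of endothelial RNA, 0 of 132 control and 0 of 77 Dnmt1iECKO cells had a UMI of *Selp*, *Sele* or *Ackr1*, which allows shares of up to 2.27% and 3.90%. *Ptprc*-positive cells, drawn without regard to *Cdh5*, had a *Selp* UMI in 1.36% (0.807 to 2.14) and 1.30% (0.982 to 1.67), and neutrophil-like cells in 5.00% (0.611 to 16.9) and 6.11% (3.09 to 10.7), all below the vein-like shares. The median depth of epithelial-like cells was 23998 and 28484 UMIs and that of vein-like cells 11520 and 11364. Over all TECs the intervals did not overlap, with *Selp* in 2.81% (2.35 to 3.34) and 7.03% (5.92 to 8.27), and *Vcam1* in 6.67% (5.96 to 7.44) and 13.9% (12.4 to 15.6). These intervals cover the draw of cells from 1 library each. Shares over all TECs also move with the vein-like share of TECs, 1.96% and 5.96%.

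The genes were often found in the same vein-like cells. At 2000 UMIs, all 8 control and all 18 Dnmt1iECKO vein-like cells with a *Sele* UMI also had *Selp* and *Icam1* UMIs. In vein-like cells without *Sele*, *Selp* was found in 30.2% and 35.6% and *Icam1* in 60.5% and 63.4%. Over all TECs, *Selp* was found in 47.1% and 53.0% of cells with *Sele*, against 2.13% and 5.36% without. It was found in 8.33% and 26.3% of general capillary-like cells with *Sele*, and in 0 of 3 and 2 of 5 such artery-like cells. Of vein-like cells with *Ackr1*, 3 of 5 and 7 of 12 had *Sele*, against 5.62% and 10.3% of those without. At least 3 of *Selp*, *Sele*, *Icam1*, *Vcam1* and *Ackr1* were detected in 26.6% (18.0 to 36.7) of control and 34.5% (26.0 to 43.7) of Dnmt1iECKO vein-like cells. In general capillary-like cells these shares were 0.366% and 1.07%, and over all TECs 1.65% (1.30 to 2.07) and 4.60% (3.70 to 5.64). The cells shared a library and were drawn to equal depth, and the shares are descriptions.

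**Figure D4:**
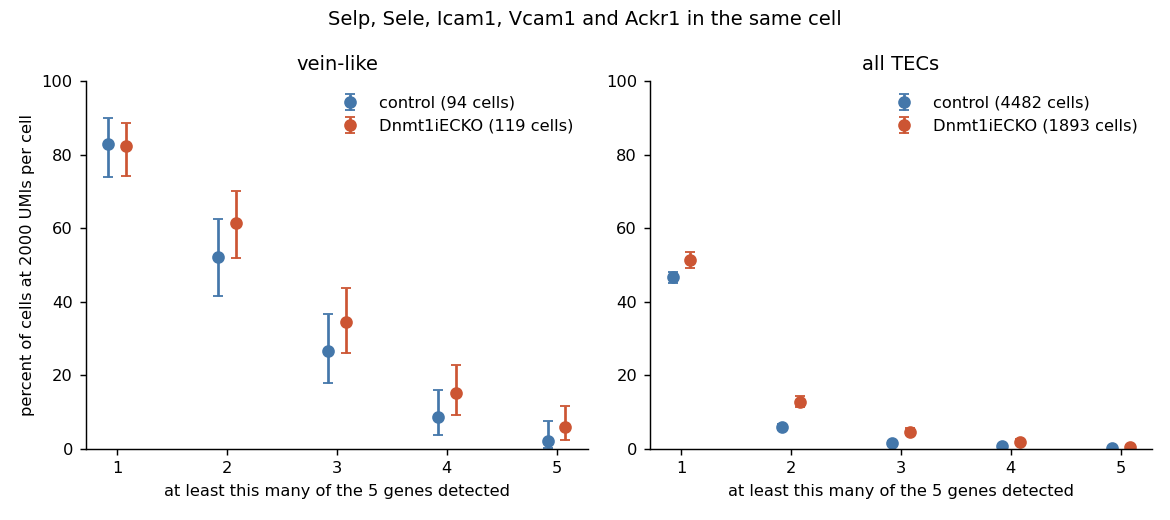
Percent of cells, each thinned to 2000 UMIs, in which at least 1, 2, 3, 4 or 5 of Selp, Sele, Icam1, Vcam1 and Ackr1 were detected, for vein-like cells and all TECs, with Clopper-Pearson 95% intervals. In vein-like cells at least 3 were found in 26.6% and 34.5%, with overlapping intervals, and over all TECs in 1.65% and 4.60%, without overlap. Intervals cover the draw of cells from 1 library each, and shares over all TECs also move with the vein-like share of TECs.

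A split of the vein-like cells by an *Ackr1* UMI, made without thinning, gave 8 control and 23 Dnmt1iECKO cells with and 87 and 100 cells without. Cells with *Ackr1* had medians of 19740 and 19941 UMIs, against 11486 and 10481 in the others, so that depth moved with the split. *Selp* had 5213 and 5321 CPM in cells with *Ackr1* and 1405 and 2103 in cells without. The ratio of the libraries was 0.03 (−0.085 to 0.15) in the first and 0.58 (0.49 to 0.67) in the second. *Sele* had 959 and 865 CPM with *Ackr1* and 135 and 269 without, with ratios of −0.15 (−0.42 to 0.13) and 1.00 (0.72 to 1.28). *Vcam1* had 4523 and 3123 CPM with *Ackr1* and 1267 and 2180 without, with ratios of −0.53 (−0.66 to −0.40) and 0.78 (0.69 to 0.88). Single cells weighed heavily here. The richest of the 8 control cells held 70.5% of their *Sele* UMIs, and the one richest in *Selp* held 33.4% of their *Selp* UMIs. Without the richest cell of each library and side the *Selp* ratios were 0.29 (0.16 to 0.43) and 0.62 (0.52 to 0.72). Those of *Sele* were then 1.20 and 1.45, and those of *Vcam1* −0.34 and 0.79.

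The other genes of the pathway were read from lists. Of 18 genes of endothelial adhesion and transmigration, among them *Pecam1*, *Cdh5*, *Esam*, *F11r*, *Jam2*, *Mcam* and *Cd47*, 16 had the minimum count and 0 were past 2-fold over all TECs or in vein-like cells, with medians of −0.03 and 0.054. *Vwf*, which is stored with P-selectin in endothelial granules, had 208 and 345 CPM over all TECs, a ratio of 0.73 (0.69 to 0.77), and 1934 and 2144 in vein-like cells, a ratio of 0.15 (0.075 to 0.22). *Madcam1* and *Glycam1*, addressins of mucosal and lymph node vessels, were near 0, with 5 and 1 UMIs of *Madcam1* and 0 and 20 of *Glycam1* over all TECs. Of 7 enzymes that build selectin ligands, 4 had the minimum count and none was past 2-fold. *St3gal4* had 176 and 128 CPM in vein-like cells, a ratio of −0.46 (−0.73 to −0.19). Of 11 leukocyte partners, 5 had the minimum count in TECs and 1, *Itgb2*, was past 2-fold, at 1.35 and 2.92 CPM. Leukocyte markers in TECs were higher too, with neutrophil markers at a summed 1.28 and 7.86 CPM, T cell markers at 0.830 and 2.72 and monocyte or macrophage markers at 35.4 and 62.3, and their part in the *Itgb2* level was not tested. In general capillary-like cells 3 of 6 partners were past 2-fold higher, *Itgb2* at a ratio of 2.14 (1.14 to 3.20) and *Itgal* and *Itgb7*, each on 11 and 10 UMIs, at 1.17 (−0.23 to 2.54), with a list median of 0.59. Neutrophil markers summed to 1.47 and 8.31 CPM in that class. In aerocyte-like cells *Jam3*, of the junction genes, and *St3gal4* were past 2-fold lower, at −1.20 (−2.08 to −0.41) and −1.08 (−1.66 to −0.54).

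In *Ptprc*-positive cells, 1347 of the control and 4506 of the Dnmt1iECKO library, the partners of the vascular genes were present in both. *Selplg* had 150 CPM (145 to 155) and 190 (187 to 193), a ratio of 0.34 (0.29 to 0.39), and *Itga4* 321 (314 to 328) and 370 (365 to 374), a ratio of 0.21 (0.17 to 0.24). *Ptprc*-positive control cells also carried more endothelial RNA, with 185 against 67.8 CPM of *Cdh5*, and in those without a *Cdh5* UMI the ratios were 0.20 for *Selplg* and 0.14 for *Itga4*. By type, T cell-like cells (337 and 1500) had 346 and 344 CPM of *Selplg*, and 406 and 400 of *Itga4*. B cell-like cells (201 and 653) had 38.7 and 37.6 of *Selplg*, and 502 and 501 of *Itga4*. In both types the libraries differed by less than counting error for either gene. NK cell-like cells (48 and 148) had 410 and 516 CPM of *Selplg* and 651 (583 to 725) and 1220 (1157 to 1284) of *Itga4*, a ratio of 0.91 (0.73 to 1.08). In neutrophil-like cells (40 and 187) *Selplg* had 288 and 677 CPM and *Itga4* 90.4 and 270. The 40 control cells of that type had 804 CPM of *Cdh5* against 70.6 in the 187 Dnmt1iECKO cells, and the part of this endothelial RNA in the neutrophil-like levels was not tested. *Selp* UMIs in leukocytes lay in single cells in some types and not in others. Of these, 1 of 1500 Dnmt1iECKO T cell-like cells held 351 of 477, and 1 of 201 control B cell-like cells held 108 of 110. In the Dnmt1iECKO library 41 monocyte or macrophage-like cells shared 468 UMIs, with at most 58 in a cell, and 25 of 187 neutrophil-like cells shared 37, with at most 3.

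**Figure D5:**
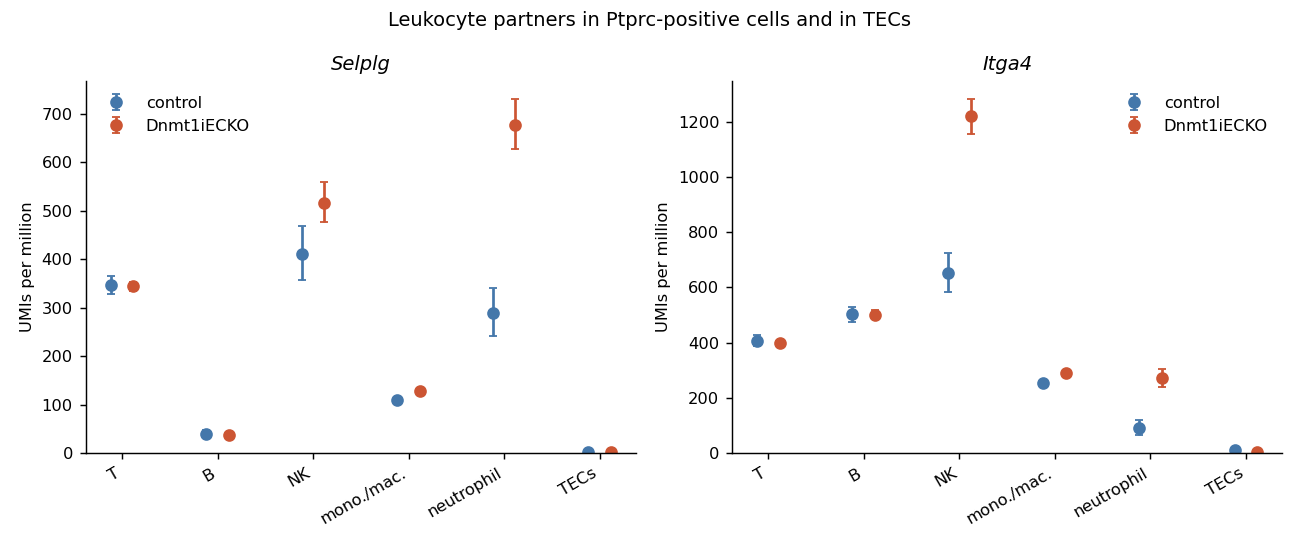
CPM of Selplg and Itga4 in 5 types of Ptprc-positive cells and in TECs, with 1 point per library and exact Poisson 95% intervals on linear axes from 0. T cell-like and B cell-like points of the libraries coincide (346 and 344 for Selplg in T cell-like cells), Itga4 in NK cell-like cells stands at 651 and 1220, and TECs lie near 0.

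Over 26 points, formed by 13 cell classes and types in each of the 2 libraries, the genes whose log2 levels followed a member most closely were *Tll1*, *Vwf* and *Rnd1* for *Selp* (Pearson r of 0.908, 0.896 and 0.893), *Samd5*, *Adgrg6* and *Nuak1* for *Sele* (0.927, 0.906 and 0.901) and *Phactr2*, *Arrb1* and *Dram2* for *Icam1* (0.876, 0.875 and 0.867). For *Vcam1* they were *Uap1*, *Selenom* and *Mir100hg* (0.906, 0.898 and 0.897), and for *Ackr1* they were *Slc6a2*, *Kl* and *Nrxn3* (0.955, 0.950 and 0.929). *Slc6a2* is one of the genes that define vein-like cells, and the points of a library share its depth and its free RNA.

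Some members overlap other genes in the GENCODE annotation of GRCm38. *Ackr1* (chromosome 1, 173331886 to 173333750) lies within the span of *Cadm3* on the same strand, which had 19 and 32 UMIs in TECs against 434 and 656 of *Ackr1*. Genes on the opposite strand of *Selp*, *Icam1*, *Vcam1* (chromosome 3, 116109949 to 116129688), *Cd34* and *Itga4* had at most 104 UMIs each, and the sources used here do not state whether counting kept the strands apart.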

How the data were processed

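Sorted cells of 1 control and 1 Dnmt1iECKO library were sequenced. The authors deposited raw UMI counts for every gene in every called cell. The submitters' processing notes name Cell Ranger 9.0.1 and mm10. The sources name different versions of the 10x kit, and counting by strand is not given in the sources used here.

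From the deposited counts, cells with over 10% mitochondrial counts or fewer than 500 genes were removed, as were the highest Scrublet scores at 0.4% per 1000 cells (scanpy 1.11.5). The doublet caller and the filter on detected genes that the study states were not applied. Counts were summed per class and library and given as CPM (UMIs per 1000000) with exact Poisson intervals; ratios have exact intervals conditional on the sum of both counts, and shares Clopper-Pearson intervals after thinning each cell to 2000 UMIs. At that depth 355 control and 171 Dnmt1iECKO TECs were left out. A fold of 2 was read only where both libraries together had 100 UMIs (20 within a class). A count of 0 allows up to 3. Likeness is Pearson's r of log2(CPM + 10) over classes with at least 20 cells, and the 3 closest genes are named for each of 5 members. Named genes are the 10 members, the pathway lists and these. Members and lists were chosen with earlier results of these data known, so the lists are no independent evidence. With 1 library per condition no test was made. The calculation was tested on simulated data. Of 32285 identifiers, 32235 were found in the annotation. Python 3.11.15, numpy 2.4.6, scipy 1.17.1, pandas 2.3.3 and matplotlib 3.10.9 were used.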

Additional observations from a re-analysis of the deposited data

Results flagged for a closer look

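Of 4 named classes, *Cd34* was lower in the Dnmt1iECKO library in aerocyte-like cells, at a log2 ratio of −0.13, and higher in general capillary-like cells at 0.20, in vein-like cells at 0.30 and in artery-like cells at 1.23, with all 4 intervals clear of 0. The artery-like value rests on 31 and 76 UMIs and was 0.64 with at least 3 UMIs of the pair, the vein-like value was −0.12 in cells without an *Ackr1* UMI, and the difference between classes was not tested.

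In vein-like cells with an *Ackr1* UMI, *Vcam1* was lower in the Dnmt1iECKO library, at −0.53, and in those without one it was higher, at 0.78. The first rests on 8 control and 23 Dnmt1iECKO cells, and the difference was not tested.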

How the results depend on the processing

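No paired analysis was possible because each condition had 1 library. Of 144 values of 9 members over all TECs, under 16 alternatives, 141 kept their direction and none of the members past 2-fold changed sign. In vein-like cells 129 of 135 did. Over all TECs, 4 members higher and 1 lower were found under the settings tried, except that the control class composition left 1 higher, the mean over cells of CPM left 0 lower, and keeping *Epcam*, *Cspg4* or *Myh11* cells left 3 higher.

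The counts past 2-fold in the classes moved by 1 or 2 members. In general capillary-like cells (1 higher, 1 lower) there were 2 lower with at least 1000 or 2000 genes, with UMIs of both *Cdh5* and *Pecam1* and without the cell richest in a gene. There were 2 higher without doublet removal, with doublets at 0.8% per 1000 cells, by the mean over cells and without cells with *Mki67* or *Top2a* UMIs. There were 3 higher without cells with *Pf4* or *Ppbp* UMIs, 3 higher and 0 lower by at least 3 UMIs of the pair, 0 higher after thinning, and 0 lower with *Epcam*, *Cspg4* or *Myh11* cells kept. In aerocyte-like cells (0 higher, 1 lower) there was 1 higher at 0.8% doublets, by the mean over cells and without *Mki67* or *Top2a* cells, 1 higher and 2 lower with *Epcam*, *Cspg4* or *Myh11* cells kept, 1 higher and 0 lower without the richest cell, 2 higher and 0 lower without *Pf4* or *Ppbp* cells and by at least 3 UMIs of the pair, and 2 higher after thinning. In vein-like cells (0 and 0) there was 1 lower at 0.8% doublets, with both *Cdh5* and *Pecam1*, without *Dcn* or *Col1a1* cells, by at least 3 UMIs and without *Mki67* or *Top2a* cells, and 1 higher and 1 lower by the mean over cells and without the richest cell. In artery-like cells (1 and 0) there were 2 higher by at least 3 UMIs and without *Mki67* or *Top2a* cells, and 2 higher and 2 lower after thinning. The cause was not tested.

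At a fold of 1.5 the counts higher and lower were 1 and 2 in aerocyte-like, 3 and 2 in general capillary-like and 2 and 1 in vein-like cells, where 5.00% and 7.03%, 5.49% and 6.11%, and 9.34% and 8.92% of all genes passed, against 7.50% and 2.10% over all TECs. With a minimum of 10 UMIs, 6.50% of genes were higher and 3.03% lower over all TECs, and 4.82% lower in vein-like cells. In Ptprc-positive cells the *Selplg* ratio was 0.29 without *Rag1* or *Dntt* cells and 0.20 without *Cdh5*, and the *Itga4* ratio 0.14 without *Cdh5*. Size factors shifted every ratio by at most 0.061. The settings that leave out the richest cell, *Mki67* or *Top2a* cells, the class other or *Ackr1* cells were chosen after seeing the data. With 30 and 31 artery-like cells, and 1 library a condition, depth and the lack of replicates limit every class value.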
